A study of Homo sapiens with 6 samples.

Results

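The genes described here are the solute carriers of cellular membranes, in all families apart from those given at the end of this paragraph, that were expressed in MDA-MB-231 cells, an established human line of triple negative breast cancer with a mesenchymal appearance. RNA-seq libraries were compared between cells transfected with siRNA against USP32 (siUSP32, 3 libraries) and cells transfected with control siRNA (siControl, 3 libraries). USP32 is a gene for a ubiquitin-specific protease. Both groups were harvested after 48 h, and the labels do not state how many siRNAs were used. The study's title ties USP32 to the stability of YAP, a transcriptional co-activator. Members were the genes whose symbol is SLC followed by a digit and whose mean level in the 3 siControl libraries was at least 1 FPKM (a level of expression per transcript length and library size). The facilitative sugar (SLC2), monocarboxylate (SLC16), mitochondrial (SLC25) and zinc (SLC30 and SLC39) families were left out, as were SLC1A4, SLC1A5, SLC3A2, SLC7A1, SLC7A5, SLC7A11, SLC11A2, SLC38A1, SLC38A2 and SLC40A1. The rule found 131 of the 17646 genes listed, among 343 genes with an SLC symbol, and 101 further genes of the same families lay under the level.

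Solute carriers are membrane proteins, most of them crossing the membrane many times, that move ions, nutrients, cofactors and metabolites down a gradient or coupled to the flow of another ion. Those of the plasma membrane set what a cell takes up and its volume and pH. Those of the endoplasmic reticulum and Golgi bring nucleotide sugars, sulfate donors and ATP into the secretory pathway, and those of lysosomes release the products of digestion. The number in a symbol names the family and the letter and last digit the member.

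Members were selected on the mean FPKM of the siControl libraries, and every difference below uses that level, so the counts of members are a description of these libraries and are set beside the same counts over all genes. At the edge of the rule, SLC7A4 (1.07 FPKM in siControl) and SLC13A3 (1.15) were the members just inside it, and SLC44A5 (0.993) was just outside. The 3 members SLC45A1, SLC46A3 and SLC7A4 had a mean under 1 FPKM over the 6 libraries and were not among the 12003 genes tested, which left 128 tested members. The symbols SLC9A3R1, SLC9A3R2, SLC4A1AP and SLC7A6OS fell under the rule although their proteins are not carriers: the first pair are scaffold proteins that bind transporters, and the others are named after a neighbouring or interacting carrier.

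The targeted gene was lower in its own libraries. USP32 stood at 2, 1.88 and 2.01 FPKM in siUSP32, against 7.5, 7.48 and 8.32 FPKM in siControl, a log2 difference of -1.56 (limma adjusted p = 8.57e-08). The mesenchymal marker VIM was high in both groups (1658 FPKM in siUSP32 and 1085 in siControl). CD44, EGFR and AXL, also looked for in this line, were present in both groups but lower in siUSP32. CD44 stood at 135 FPKM in siUSP32 and 425 FPKM in siControl, EGFR at 7.16 and 37.8, and AXL at 16.7 and 64.5. ESR1 and CDH1 were under 1 FPKM in every library, while ERBB2 (3.60 FPKM in siUSP32 and 12.03 in siControl) and EPCAM (4.24 and 10.5) were not absent. The blood marker PTPRC was at or near 0 in all libraries. The endothelial marker PECAM1 (0.41 FPKM in siUSP32 and 1.02 in siControl) and the fibroblast marker COL1A1 (0.80 and 1.89) were low but detected. Correlations of log2 values were 0.994 to 0.998 within siUSP32, 0.997 to 0.998 within siControl and 0.931 to 0.943 between the groups. Whether replicate libraries are separate cultures is not stated in the labels, and the p-values therefore speak only of variation among libraries, possibly technical. In bulk RNA, fewer cells expressing a gene and less RNA per cell cannot be told apart.

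As a group, the carriers were lower in siUSP32. Their summed level was 1010, 1054 and 1006 FPKM in the siUSP32 libraries, against 1728, 1743 and 1743 FPKM in the siControl libraries. The median member stood at 3.29, 3.56 and 3.58 FPKM in siUSP32 and at 8.41, 8.66 and 9.19 FPKM in siControl, and the 2 groups of libraries did not overlap in either measure. The sum over all listed genes moved the other way: it was 855573 to 948641 FPKM in siUSP32 and 686376 to 694831 FPKM in siControl, so that the members made up 0.111% to 0.118% of it in siUSP32 and 0.251% to 0.254% in siControl. The part that this difference in sums had in the results was not tested, and values after rescaling each library to the same sum (TPM) are given where they matter.

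Gene by gene, 112 of the 128 tested members were lower in siUSP32 at a limma adjusted p under 0.05, 5 were higher and 11 did not pass. Among all 12003 tested genes 41.3% were lower and 33.3% higher, and among the 11909 of these that also had a siControl level of at least 1 FPKM the shares were 41.6% and 33.0%. The median difference (siUSP32 minus siControl on log2(FPKM + 1)) was -0.93 over the members and -0.06 over all tested genes. Without the filter on low values all 131 members could be fitted, with 115 lower, 5 higher and a median of -0.92. Of all 17639 genes fitted without the filter, 33.8% were lower and 23.2% higher. With the 97 members at 5 FPKM or more in siControl, far from the edge of the rule, 87 were lower and 4 higher, beside 38.7% lower and 38.7% higher of all genes at that level. The siUSP32 libraries all lay under the siControl libraries for 116 of 131 members and all above for 6, beside 44.6% all under and 33.6% all above among all 12166 genes with a siControl level of at least 1 FPKM.

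The size of the falls was broad. A called fall of at least 1 on the log2 scale was found for 59 tested members, beside 10.8% of all tested genes. No member rose by that much, and among all 12003 tested genes only 234 had a called rise of that size. In raw FPKM, 75 of the 131 members had a siUSP32 mean of 50% or less of the siControl mean, 19 had 25% or less, and 11 were under 1 FPKM in every siUSP32 library. Rescaling to TPM put the median of all genes at -0.38 and that of the members at -1.21, and quantile normalization put them at 0.10 and -0.62. The members' median lay 0.87 under that of all genes as fitted, 0.83 under it with TPM and 0.72 under it with quantile normalization.

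**Figure D1:**
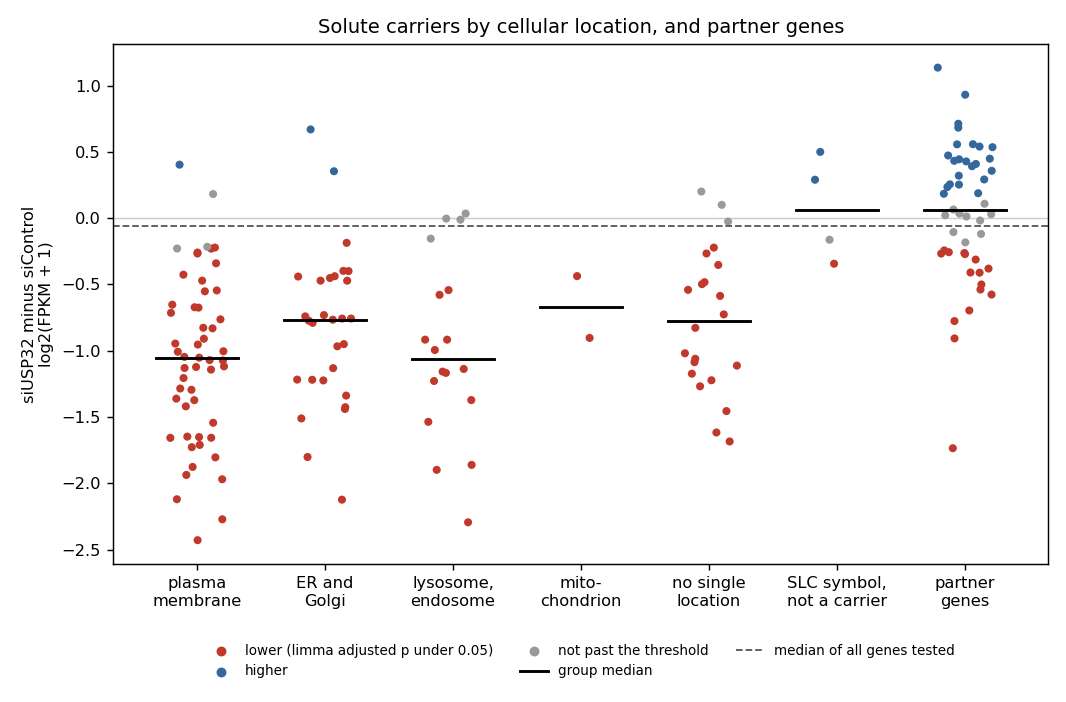
Each point is 1 gene, placed by the cellular location of its protein, with siUSP32 minus siControl on log2(FPKM + 1) on the vertical axis; red points were lower, blue points higher and grey points not past a limma adjusted p of 0.05. The black group medians lie at -1.05 (plasma membrane), -0.77 (ER and Golgi) and -1.07 (lysosome and endosome), under the dashed median of all tested genes at -0.06, and the partner genes at the right centre on 0.07 (-0.30 with TPM).

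Promoter sequences are shown for the members with the 2 largest falls and the largest rise, because these carry the extremes of the comparison. Each is the 250 bases before the gene's start in RefSeq on GRCh38.p14, from 5′ to 3′ on the gene's strand, with matches in capitals to CACGTG (the E-box bound by MYC, USF and TFE factors) and to GGGCGG or its complement CCGCCC (the GC box bound by Sp1). SLC12A2 lies at chr5:128083516-128083765 on the + strand, SLC36A1 at chr5:151447353-151447602 on the + strand and SLC50A1 at chr1:155135602-155135851 on the + strand.
SLC12A2: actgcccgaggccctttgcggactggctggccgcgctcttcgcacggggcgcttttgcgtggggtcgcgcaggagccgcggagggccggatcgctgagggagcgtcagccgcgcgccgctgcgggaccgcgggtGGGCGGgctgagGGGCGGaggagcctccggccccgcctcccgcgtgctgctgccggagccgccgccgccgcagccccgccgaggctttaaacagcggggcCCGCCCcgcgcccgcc
SLC36A1: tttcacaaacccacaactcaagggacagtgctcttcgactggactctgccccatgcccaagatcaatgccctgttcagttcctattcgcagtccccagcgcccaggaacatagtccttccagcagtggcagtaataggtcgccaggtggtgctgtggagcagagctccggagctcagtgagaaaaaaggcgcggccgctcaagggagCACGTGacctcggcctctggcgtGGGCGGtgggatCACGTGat
SLC50A1: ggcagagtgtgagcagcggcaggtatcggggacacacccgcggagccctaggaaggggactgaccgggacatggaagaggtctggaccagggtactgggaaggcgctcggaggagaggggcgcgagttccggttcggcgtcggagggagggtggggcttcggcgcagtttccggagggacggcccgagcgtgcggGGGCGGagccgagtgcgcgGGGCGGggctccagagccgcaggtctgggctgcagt
The SLC12A2 window held 3 GC boxes and no CACGTG, that of SLC36A1 held 2 CACGTG and 1 GC box, and that of SLC50A1 held 2 GC boxes and no CACGTG. RefSeq windows were matched for 103 members and 9860 tested genes, and searched on both strands. The E-box CACGTG was found in 12.6% of member windows and 9.01% of all windows, the GC box GGGCGG in 79.6% and 70.5%, the TEAD motif GGAATG (TEAD factors are the DNA-binding partners of YAP) in 9.71% and 9.09%, and the cyclic AMP element TGACGTCA in 2.91% and 3.03%. The ATF4 composite motif TGATGCAA was in no member window and in 0.355% of all windows. These matches describe letters in the window and not binding.

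At the plasma membrane, 49 of 53 members were lower in siUSP32, 1 was higher and 3 did not pass, with a median difference of -1.05 (-1.29 with TPM, -0.74 with quantile normalization). The ion carriers held the largest fall. SLC12A2, the sodium-potassium-chloride cotransporter that loads cells with chloride and restores volume after shrinkage, had 2.82, 2.47 and 3.04 FPKM in siUSP32, against 19.11, 19.63 and 19.13 FPKM in siControl. The groups were far apart, with a 6.95-fold lower mean and a log2 difference of -2.43 ± 0.072 (SE; limma adjusted p = 8.45e-09). SLC12A7, a potassium-chloride cotransporter that works in the opposite direction, had 14.49, 13.84 and 14.77 FPKM in siUSP32, against 46.35, 48.89 and 47.02 FPKM in siControl, a difference of -1.66. SLC12A4 (-1.12), a potassium-chloride cotransporter too, was lower as well, so carriers that load chloride and carriers that extrude it moved the same way. SLC12A8 (-1.17) and SLC12A9 (-0.54) of the same family were lower.

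Carriers that set cytosolic pH followed. SLC4A7, a sodium-bicarbonate cotransporter, had 2.59, 1.5 and 2.96 FPKM in siUSP32, against 6.67, 6.62 and 7.79 FPKM in siControl (-1.28), and its siUSP32 library 2 was the lowest. SLC4A2, a chloride-bicarbonate exchanger that loads acid, was abundant and less changed, at 25.2 ± 0.176 FPKM in siUSP32 and 35.3 ± 0.377 FPKM in siControl (SD, n = 3 each; -0.47, or -0.16 after the correction for transcript length). Among sodium-proton exchangers of the surface, SLC9A2 was 4.79-fold lower (-1.65) and SLC9A3 only 1.22-fold lower (-0.27). SLC9A4 and SLC9A5 did not pass, with differences of 0.18 and -0.23 at levels under 2 FPKM.

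Phosphate, sulfate and osmolyte carriers were lower throughout the members tested. SLC20A1, a sodium-phosphate cotransporter and the most abundant member in siControl after SLC52A2, had 24.40, 20.56 and 25.22 FPKM in siUSP32, against 92.69, 91.10 and 92.30 FPKM in siControl, 3.93-fold lower (-1.94, limma adjusted p = 3.30e-08). Its relative SLC20A2 was 3.33-fold lower (-1.37). SLC26A2, which brings in sulfate for proteoglycans, fell to 0.987 ± 0.0289 FPKM in siUSP32, against 5.58 ± 0.104 FPKM in siControl (SD, n = 3 each). SLC5A3, the sodium-coupled carrier of the osmolyte myo-inositol, had 1.44, 1 and 1.25 FPKM in siUSP32, against 8.41, 8.50 and 9.08 FPKM in siControl, 7.04-fold lower. Carriers of the osmolyte taurine (SLC6A6, -1.42) and of creatine (SLC6A8, -0.67) were lower too, SLC6A6 at 5.83, 6.22 and 5.16 FPKM in siUSP32 and at 16.95, 16.66 and 17.32 FPKM in siControl.

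The carriers of choline and vitamins named here were lower by widely different amounts. SLC44A1, a choline transporter, had 2.08, 1.46 and 2.14 FPKM in siUSP32, against 13.45, 12.37 and 12.84 FPKM in siControl (-2.27), and SLC44A2 of the same family was 3.11-fold lower (-1.54). SLC23A2, which takes up vitamin C with sodium, was 5.98-fold lower (-1.88), with 1.24, 1 and 1.23 FPKM in siUSP32 and 6.74, 6.58 and 7.42 FPKM in siControl. The reduced folate carrier SLC19A1 (-1.05), the thiamine carrier SLC19A2 (-1.0) and SLC5A6, the carrier of biotin and pantothenate (-1.13), were each between 2.30-fold and 2.63-fold lower. The riboflavin carrier SLC52A2 had the highest siControl level of all members and a small fall: it stood at 65.88, 83.32 and 64.83 FPKM in siUSP32, against 94.54, 98.44 and 93.81 FPKM in siControl (-0.43, limma adjusted p = 0.00204). Its siUSP32 library 2 lay nearest to siControl, and the groups did not overlap.

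Carriers of amino acids at the surface differed widely in the size of the fall. SLC7A8, a neutral amino acid exchanger, had the largest ratio of all members: 0.21, 0.29 and 0.21 FPKM in siUSP32, against 3.38, 3.39 and 3.18 FPKM in siControl, 14.01-fold lower, although the log2 difference with its pseudocount was -1.80. The glutamate carriers SLC1A1 (-1.71) and SLC1A3 (-1.29) and the branched-chain carrier SLC43A2 (-1.65) were lower, as was SLC7A6 (-1.14). By contrast SLC7A7 (-0.22), SLC43A1 (-0.26) and the glycine carrier SLC6A9 (-0.23) passed the test with small differences, and each turned to a positive value with quantile normalization. The exons of SLC7A6 share 53.4% of its transcript with SLC7A6OS on the opposite strand, and because no source used here gives the handling of strand, the values of both are uncertain. In all, 16 members share exon bases with another listed gene, 14 of them on the opposite strand, and for 5 the shared bases exceed 10% of the transcript (SLC46A1, SLC7A6, SLC7A6OS, SLC38A6 and SLC4A1AP).

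Values for carriers of carnitine, nucleosides and copper follow. SLC22A5, which takes up carnitine for fatty acid oxidation, had 2.84, 2.43 and 2.5 FPKM in siUSP32, against 10.80, 10.39 and 9.75 FPKM in siControl, 3.98-fold lower (-1.66). The nucleoside carrier SLC29A1 stood at 7.49 ± 0.161 FPKM in siUSP32 and 16.6 ± 0.919 FPKM in siControl (SD, n = 3 each; -1.05), and SLC43A3, a purine nucleobase carrier, at 15.9 ± 0.689 FPKM in siUSP32 and 38.01 ± 0.882 FPKM in siControl (-1.21). The copper importer SLC31A1 was 1.85-fold lower (-0.83). In the same class SLC29A2 (-0.54) was lower and SLC29A4 (-0.22) did not pass. The rise at the surface was that of SLC13A3, a sodium-coupled dicarboxylate carrier at the edge of the rule, with 1.79, 1.81 and 1.91 FPKM in siUSP32 and 1.34, 1.16 and 0.95 FPKM in siControl (0.40, limma adjusted p = 0.00179; 0.19 with TPM, adjusted p = 0.0960).

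**Figure D2:**
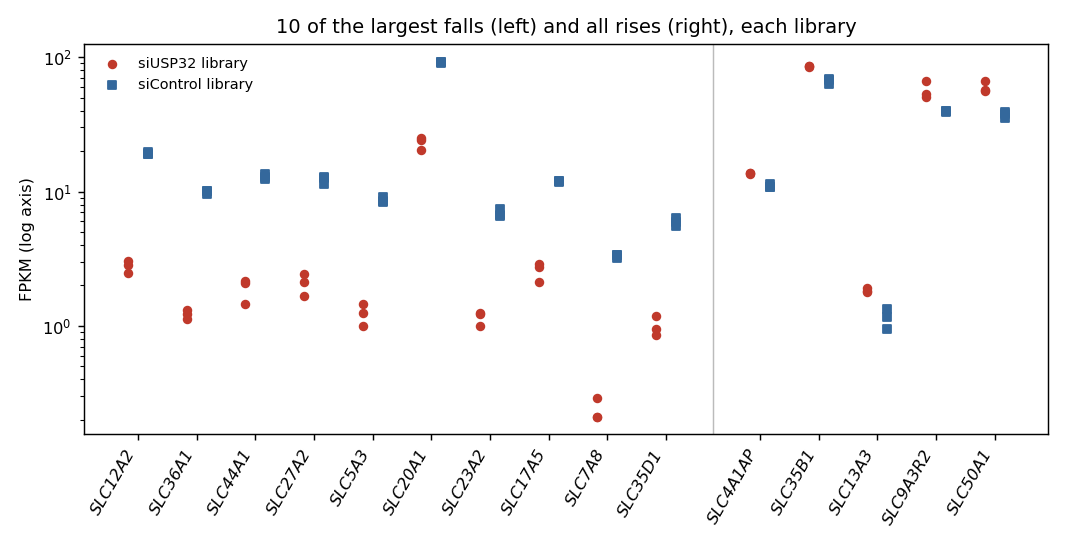
FPKM of each library on a log axis for 10 of the largest falls among the members (left of the line) and all 5 called rises (right), with siUSP32 as red circles left of siControl as blue squares. The red and blue points do not overlap for any of these genes; SLC12A2 lies at 2.47 to 3.04 FPKM in siUSP32 and 19.11 to 19.63 FPKM in siControl, while SLC50A1 lies at 56.12 to 67.15 FPKM in siUSP32 and 35.59 to 38.80 FPKM in siControl.

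In the endoplasmic reticulum and Golgi, 27 of 29 members were lower and the remaining 2 were higher, with a median of -0.77 (-1.10 with TPM, -0.55 with quantile normalization). Most of them belong to SLC35, the family that carries nucleotide sugars and related donors into the lumen for glycosylation and sulfation. Across all locations, 22 of its 24 members were lower, 1 was higher and 1 did not pass, with a median of -0.76. SLC35D1, which carries UDP-glucuronic acid and UDP-N-acetylgalactosamine for chondroitin sulfate, had 0.95, 0.85 and 1.19 FPKM in siUSP32, against 5.58, 6.31 and 5.95 FPKM in siControl, 5.97-fold lower (-1.80, limma adjusted p = 1.24e-07). SLC35A1, the CMP-sialic acid carrier on which sialylation depends, had 5.94, 6.34 and 6.15 FPKM in siUSP32, against 18.92, 17.59 and 18.06 FPKM in siControl (-1.43). The groups did not overlap for either gene.

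Among other SLC35 members of the endoplasmic reticulum and Golgi, SLC35B4 was 3.71-fold lower (-1.51), SLC35A5 3.33-fold lower (-1.44) and SLC35A3 2.52-fold lower (-1.13). The UDP-galactose carrier SLC35A2 (-0.73), the GDP-fucose carrier SLC35C1 (-0.77) and the carriers of the sulfate donor PAPS, SLC35B2 (-0.44) and SLC35B3 (-0.40), were between 1.38-fold and 1.77-fold lower. SLC35C2 passed the test with a difference of -0.19 (40.7 ± 2.69 FPKM in siUSP32 and 46.4 ± 0.748 FPKM in siControl, SD, n = 3 each; limma adjusted p = 0.0157). SLC35B1, which exchanges ATP for ADP across the endoplasmic reticulum membrane and does not carry a sugar, had 86.12, 85.16 and 85.63 FPKM in siUSP32, against 69.33, 68.10 and 63.10 FPKM in siControl. Its log2 difference was 0.35 (limma adjusted p = 1.92e-04), but -0.01 with TPM. Of the more abundant SLC35 members, SLC35A4 was at 37.1 ± 2.71 FPKM in siUSP32 and 51.9 ± 5.09 FPKM in siControl (-0.47), and SLC35F2, a plasma membrane member, at 16.6 ± 1.30 FPKM in siUSP32 and 44.2 ± 0.246 FPKM in siControl (SD, n = 3 each; -1.36). The pair SLC35E2A (-0.76) and SLC35E2B (-0.45) are near-identical copies that can share reads, so their values are uncertain.

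**Figure D3:**
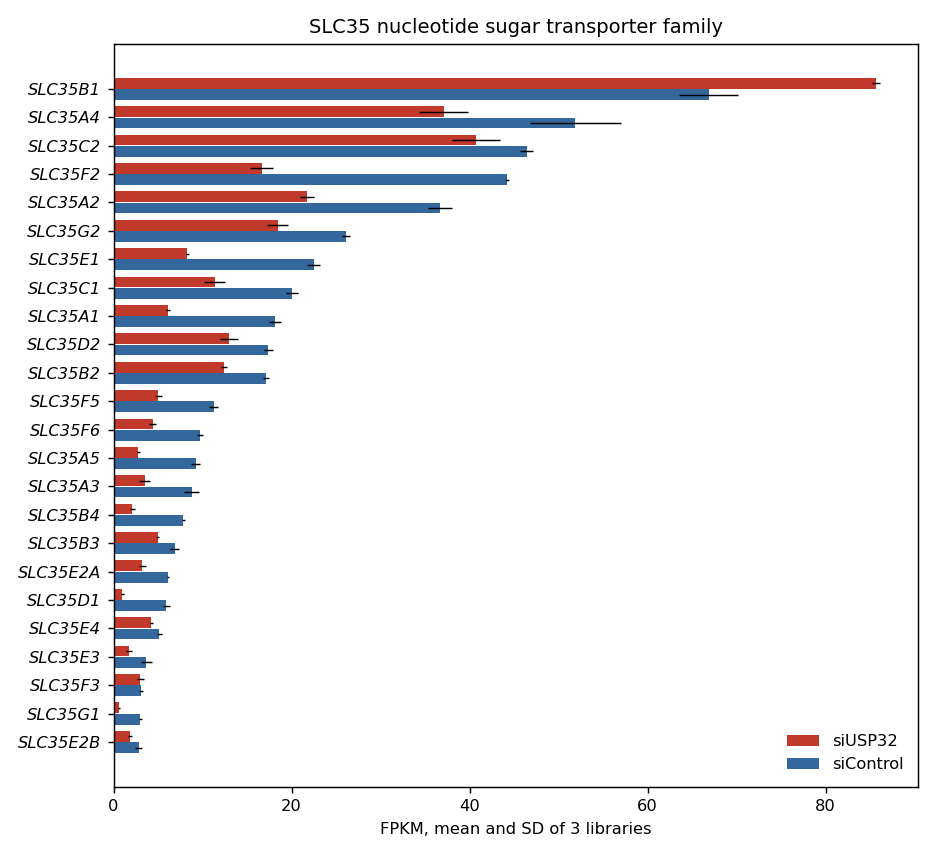
Mean FPKM of the 24 SLC35 members with the SD of 3 libraries as error bars, siUSP32 (red) above siControl (blue) for each gene, ordered by the siControl level. The red bar is shorter for every gene but SLC35B1, at 85.6 FPKM in siUSP32 and 66.8 FPKM in siControl; the 2 bars of SLC35F3 lie within each other's SD.

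Outside SLC35, SLC33A1, which brings acetyl-CoA into the endoplasmic reticulum, was 2.68-fold lower (-1.22), and SLC37A4, the glucose 6-phosphate carrier, 1.40-fold lower (-0.44). SLC27A2, an acyl-CoA synthetase of very long chain fatty acids that also lies in peroxisomes, had 2.11, 1.66 and 2.42 FPKM in siUSP32, against 12.61, 12.82 and 11.43 FPKM in siControl, 5.95-fold lower (-2.12). SLC27A4 of the same family was 1.85-fold lower (-0.79). SLC27A1 had the smallest fall of the family (-0.59), and SLC37A3 the largest of the SLC37 family (-1.22). The largest rise of all members was that of SLC50A1, a sugar carrier related to the SWEET proteins of plants. It had 56.12, 67.15 and 56.99 FPKM in siUSP32, against 37.54, 38.80 and 35.59 FPKM in siControl, 1.61-fold higher (0.67 ± 0.074 SE, limma adjusted p = 3.57e-05; 0.31 with TPM and 0.28 after length correction). All siUSP32 libraries were above all siControl libraries, library 2 the highest.

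In lysosomes and endosomes, 14 of 18 tested members were lower, none was higher and 4 did not pass, with a median of -1.07 (-1.36 with TPM, -0.73 with quantile normalization). SLC36A1, which exports small amino acids from lysosomes with protons, had 1.12, 1.32 and 1.23 FPKM in siUSP32, against 10.03, 10.02 and 9.63 FPKM in siControl, 8.09-fold lower (-2.29 ± 0.067 SE, limma adjusted p = 8.08e-09). SLC38A9, the lysosomal arginine sensor of the mTORC1 pathway, had 7.90, 6.85 and 8.14 FPKM in siUSP32, against 22.67, 24.21 and 25.09 FPKM in siControl, 3.14-fold lower (-1.54). SLC15A4, which exports histidine and small peptides, was 2.68-fold lower (-1.23) and the glutamine carrier SLC38A7 was 3.31-fold lower (-1.16). SLC17A5, the sialic acid exporter mutated in Salla disease, had 2.90, 2.10 and 2.73 FPKM in siUSP32, against 11.81, 11.90 and 12.07 FPKM in siControl (-1.86). SLC35F6 was 2.21-fold lower (-0.99). The lysosomal nucleoside carrier SLC29A3 had the largest fall of the SLC29 family (-1.37).

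The lysosomal members that did not pass were SLC66A1, SLC17A9, SLC31A2 and SLC48A1. SLC66A1, which exports cationic amino acids, had 14.24, 16.39 and 13.83 FPKM in siUSP32, against 14.46, 14.38 and 14.37 FPKM in siControl (0.03, limma adjusted p = 0.665; -0.31 with TPM, adjusted p = 0.00177). The heme carrier SLC48A1 had 2.51, 3.58 and 2.75 FPKM in siUSP32, against 2.92, 3.36 and 3.86 FPKM in siControl (-0.15, limma adjusted p = 0.255). In these genes the libraries of both groups overlapped. All 4, with SLC17A9 (a nucleotide carrier) and SLC31A2 (a relative of the copper importer), passed as lower with TPM.

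The 2 members placed in mitochondria, the sodium-calcium exchanger SLC8B1 (-0.90) and SLC41A3 (-0.44), were lower. Of 24 members with no single location on the list, 22 were tested: 19 were lower and 3 (SLC35F3, SLC66A2 and SLC22A31) did not pass, with a median of -0.78. SLC38A10, SLC45A4 and SLC18B1 had the largest falls there, at -1.68, -1.62 and -1.45. SLC38A6 had the smallest fall of the SLC38 family (-0.73). SLC12A8 was the most abundant of them, with 16.1 ± 0.361 FPKM in siUSP32 and 37.5 ± 0.387 FPKM in siControl (SD, n = 3 each; -1.17). The 3 untested members SLC45A1, SLC46A3 and SLC7A4 had siUSP32 means of 0.363, 0.523 and 0.267 FPKM and siControl means of 1.29, 1.27 and 1.07 FPKM.

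Of the 4 members that are not carriers, 2 were higher, 1 was lower and 1 did not pass, with a median of 0.06 (-0.28 with TPM). SLC9A3R2 was higher, with 52.87, 66.63 and 50.96 FPKM in siUSP32 and 40.02, 39.28 and 39.53 FPKM in siControl (0.50, limma adjusted p = 8.91e-04; 0.14 with TPM, adjusted p = 0.111). SLC4A1AP was 1.24-fold higher (0.29, but -0.05 with TPM), SLC9A3R1 did not pass (-0.16) and SLC7A6OS was lower (-0.34). With these left out, 111 of 124 tested carriers were lower, 3 were higher and 10 did not pass, with a median of -0.95. SLC4A1AP was placed among the genes that are not carriers after its values were seen.

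By family, the members fell into 38 families, in 27 of which all tested members were lower, and 5 held a member that was higher. Among the 27, SLC8, SLC18, SLC23, SLC33, SLC34, SLC46, SLC47 and SLC49 had only 1 tested member each. Of the 10 families with 4 or more members, SLC7, SLC12, SLC27, SLC37 and SLC38 had all tested members lower, with medians of -1.07, -1.15, -0.88, -0.75 and -1.35. In SLC9, 8 of 12 members were lower, 1 was higher and 3 did not pass, the higher one and 1 of the 3 being the scaffold proteins. In SLC22, the family of organic cation and anion carriers, 7 of 8 were lower with a median of -0.87. In SLC66, SLC66A1 and SLC66A2 did not pass the test (0.03 and 0.10) and SLC66A3 was lower (-0.50). With TPM, SLC66A1 (-0.31) and SLC66A2 (-0.25) passed as lower.

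Across the 128 tested members the difference was more negative for genes with longer transcripts (Spearman rho = -0.45) and, less so, for proteins with more hydrophobic segments (rho = -0.29), and it was hardly related to the siControl level (rho = -0.08). These points share the same 6 libraries, and the values are a description. The 64 members with shorter transcripts (1300 to 3381 bases) had a median of -0.69 and the 64 with longer ones (3447 to 17791 bases) a median of -1.13. After each library was corrected for transcript length, the correlation with transcript length was -0.12 and that with hydrophobic segments -0.27. The medians of the shorter and longer sets were then -0.74 and -0.80. The median of all members was -0.76, beside 0.01 for all genes. With this correction 107 members were lower and 5 higher, beside 35.1% lower and 35.0% higher of all 11959 genes fitted. SLC12A2 (-1.98) and SLC36A1 (-1.91) kept large falls after that correction, while SLC35E3 (-0.15) no longer passed.

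The members were then set beside genes outside the SLC families with as many hydrophobic segments, counted as stretches of 19 residues with high hydropathy. Among tested genes with 9 or more segments, the median difference was -1.08 for 58 members and -1.16 for 78 other genes, with 94.8% and 89.7% lower. With 5 to 8 segments, it was -0.80 for 52 members and -0.87 for 361 other genes, with 88.5% and 82.5% lower. With 2 to 4 segments, it was -0.50 for 13 members and -0.53 for 1157 other genes, with 69.2% and 69.6% lower. Genes with no such segment had medians of 0.06 in both sets, for 4 members and 8062 other genes. These 4 are the members that are not carriers, so no carrier stands in that class. At equal numbers of segments the members' medians thus lay within 0.1 of those of the other genes, except for the 1 member with a single segment, SLC27A4, at -0.79 beside -0.24 for 2094 genes.

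**Figure D4:**
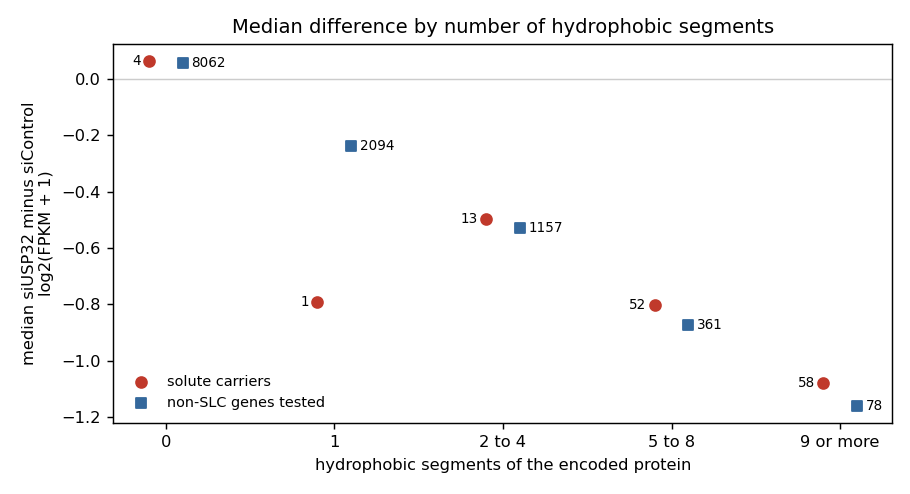
Median of siUSP32 minus siControl on log2(FPKM + 1) by the number of hydrophobic segments of the encoded protein, with the number of genes beside each point. Red circles are the members (labelled solute carriers) and blue squares are tested genes outside the SLC families. The red point without segments holds only the 4 members that are not carriers. Both sets run from near 0.06 without segments to below -1 with 9 or more, at -1.08 for the members and -1.16 for the other genes.

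Among the families left out of the membership, the counts differed. Of the SLC25 carriers of the inner mitochondrial membrane, 10 of 38 tested genes were lower, 15 higher and 13 did not pass, with a median of 0.16 (0.02 after length correction and -0.19 with TPM, where the sign turns). Beside these counts, 41.3% of all tested genes were lower and 33.3% higher. Of the 17 zinc carriers 16 were lower, with a median of -0.95, and of the 14 sugar and monocarboxylate carriers 13 were lower, with a median of -1.42. The difference between SLC25 and the members was not tested.

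A list of 52 enzymes and regulators that work with these carriers, most of them soluble, gave other counts. Of 49 tested, 16 were lower, 23 were higher and 10 did not pass, or 32.7% lower and 46.9% higher, beside 41.3% and 33.3% of all tested genes. Their median was 0.07, but -0.30 with TPM, where 26 of them and 62.2% of all tested genes were lower. Among 18 enzymes that make nucleotide sugars and sulfate donors, the substrates of SLC35, 2 were lower, 11 were higher and 5 did not pass, while 22 of 24 SLC35 members were lower. The falls were those of UXS1, which makes UDP-xylose in the Golgi and is itself membrane-anchored (18.3 FPKM in siUSP32 and 63.2 FPKM in siControl, -1.73), and of GNE. NANS, the sialic acid synthase, had the largest rise, at 231.8 FPKM in siUSP32 and 104.9 FPKM in siControl. Its difference was 1.14, or 0.70 after length correction and 0.77 with TPM, beside the fall of the CMP-sialic acid carrier SLC35A1. Of 12 partners of lysosomal amino acid sensing, 4 were lower, 4 were higher and 4 did not pass. LAMTOR4, a subunit of the Ragulator complex that SLC38A9 binds, was at 189.7 FPKM in siUSP32 and 98.8 FPKM in siControl. Its difference was 0.93, or 0.39 after length correction and 0.56 with TPM. WNK1, a kinase upstream of the SLC12 cotransporters, was 2.03-fold lower (-0.91, or -0.35 after length correction). Of the kinases that act on these cotransporters directly, STK39 was 1.68-fold higher (0.71, or 0.89 after length correction) and OXSR1 1.25-fold lower (-0.31, or -0.04 after length correction). The members and these partner genes were measured in the same libraries, and the difference between the lists was not tested.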

How the data were processed

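RNA of MDA-MB-231 cells was harvested in Trizol and sequenced with MGISEQ-2000RS library protocols, per the labels. The authors deposited FPKM per gene, in 1 table per library. Reads were placed on GRCh38.p13, per the submitters' processing notes, while no source used here gives the aligner, the annotation or the handling of strand. FPKM is not a count, and read depth is unknown.

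Genes with a mean of at least 1 FPKM over 6 libraries were analysed as log2(FPKM + 1) with limma 3.58.1 in R 4.3.3 (mean-variance trend, no covariate, 2-sided) and called where the Benjamini-Hochberg adjusted p was under 0.05, over the 12003 genes. An exact permutation test of 3 against 3 libraries cannot give a p below 0.1. Folds are ratios of mean FPKM. Same-numbered libraries did not deviate together (r = -0.08, 0.07 and 0.12), so replicate numbers were not used as pairs.

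Locations, partner genes and the genes to be named (the 20 largest falls, the called rises, the 10 highest siControl levels, family extremes, the edge of the membership rule and a list of known carriers) were chosen with earlier results of these data known, as were the members. Further members named in passing were chosen after their values were seen. Transcript length and hydrophobic segments (19 residues, mean Kyte-Doolittle hydropathy of at least 1.6) came from GENCODE 29 principal transcripts, matched for all 131 members. The length correction was a loess curve (span 0.5) per library. Promoters came from RefSeq. Results for a few genes are not reported here.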

Additional observations from a re-analysis of the deposited data

How the results depend on the processing

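Of the 128 tested members, all kept their direction and side of the threshold with a pseudocount of 0.1, without the filter and with the replicate number as a block (112 lower and 5 higher there too), as did the 79 left at a minimum mean of 5 FPKM. The same held for 113 with TPM, 120 with median-ratio scaling, 104 with quantile normalization, 115 with length correction and 127 without the trend. Leaving out 1 library gave 109 to 114 lower and 5 or 6 higher members.

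The number of higher members (5) was 1 with TPM, 10 with quantile normalization and 0 at a minimum difference of 1. Of all tested genes, 33.3% were higher as fitted, 14.4% with TPM and 43.8% with quantile normalization. Called rises of at least 1 numbered 234 among the 12003 tested genes. The number of lower members (112) was 69 at a minimum mean of 5 FPKM and 59 at a minimum difference of 1. Under these 2 settings it was 30 and 30 at the plasma membrane (49) and 9 and 9 in lysosomes and endosomes (14); in the endoplasmic reticulum and Golgi (27) it was 18 and 10. Lower partner genes (16) numbered 26 with TPM, 10 with quantile normalization and 1 at a minimum difference of 1. Fewer genes enter or qualify by construction at the higher minima; the cause of the others was not tested.

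Directions turned for these genes, the cause of which was not tested. With quantile normalization the log2 differences were 0.051 (SLC4A3), 0.091 (SLC22A15), 0.14 (SLC43A1), 0.0052 (SLC6A9), 0.14 (SLC9A5), 0.15 (SLC35E4), 0.042 (SLC7A7), 0.13 (SLC29A4), 0.25 (SLC48A1), 0.37 (SLC35F3), 0.12 (SLC17A9) and 0.24 (SLC31A2). With length correction they were 0.026 (SLC22A15), 0.16 (SLC29A4), 0.00081 (SLC35F3), 0.13 (SLC17A9) and -0.097 (SLC66A1). With median-ratio scaling they were 0.034 (SLC35F3), 0.063 (SLC17A9) and 0.069 (SLC31A2). With TPM they were -0.31 (SLC66A1), -0.25 (SLC66A2), -0.033 (SLC9A4), -0.082 (SLC22A31), -0.053 (SLC4A1AP) and -0.013 (SLC35B1). Leaving out 1 library turned only members that had not passed, with ranges of -0.10 to 0.022 for SLC35F3, -0.079 to 0.050 for SLC17A9, -0.082 to 0.12 for SLC31A2 and -0.035 to 0.080 for SLC66A1.

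Read depth is unknown, so no counting error is given. Each group held 3 libraries of 1 cell line.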

Other observations

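Of the 101 genes of the same families that lay under the siControl level of the rule, 10 had a siControl mean of at least 0.5 FPKM. SLC44A5 had 0.41, 0.21 and 0.40 FPKM in siUSP32 and a mean of 0.993 FPKM in siControl. A rule on the mean of all 6 libraries would have given 129 tested members, of which 112 were lower and 6 higher.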
